A study of Rattus norvegicus with 22 samples.

Results

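Plasminogen activation and the serpins that act on it were followed through 7 genes: the activators Plau and Plat, the cell-surface binding proteins Plaur and Anxa2, and the serpins Serpine2, Serpinb2 and Serpinb5. They were found on the arrays by gene symbol, through 8 of 30367 probes, 2 of them for Plaur. Where a gene had more than 1 probe, the brightest over the 22 arrays was used. The samples were 11 pairs of tongue tissue from male F344 rats, about 33 weeks old, that had all received 4-nitroquinoline-1-oxide (4-NQO, a carcinogen, 20 ppm in their drinking water over 10 weeks), with harvest 23 to 26 weeks after the first exposure. Each rat gave an oral squamous cell carcinoma (OSCC) and a piece of phenotypically normal tissue next to it, so the normal tissue had met the carcinogen as well and there was no unexposed group. The titles of all 22 samples read untreated, and by their labels the normal pieces had no treatment. The sampling description, by which both tissues came from exposed rats, was followed here. Each tissue piece was lysed whole, so a lower level can mean fewer cells of a type or less RNA per cell, which cannot be told apart.

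Plasmin is the protease that dissolves fibrin and takes part in the breakdown of matrix around cells. It circulates as the inactive plasminogen and is released by the urokinase-type activator, encoded by Plau, or by the tissue-type activator, encoded by Plat. Urokinase is held at the cell surface by its receptor, the product of Plaur, while annexin A2, the product of Anxa2, binds plasminogen and tissue-type activator there together with S100a10. Serpins are suicide inhibitors that trap a protease in a covalent complex. Serpine2 encodes protease nexin 1, an inhibitor of thrombin, urokinase and plasmin. Serpinb2 encodes plasminogen activator inhibitor 2, and Serpinb5 encodes maspin, an epithelial serpin that does not inhibit proteases in the classical way.

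The probes that measured the secreted urokinase, its receptor and plasminogen activator inhibitor 2 are given first, because each is the 60-base target on which the values below rest. Positions are those of the rat assembly rn4 in the array annotation, in lower case and 5′ to 3′. The Plau probe lies at chr15:3680711-3680770 on the minus strand, the brighter Plaur probe at chr1:79712786-79712845 on the plus strand, the other Plaur probe at chr1:79713035-79713094 on the plus strand, and the Serpinb2 probe at chr13:13640735-13640794 on the plus strand.
Plau: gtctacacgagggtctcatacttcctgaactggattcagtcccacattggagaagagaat
Plaur, brighter probe: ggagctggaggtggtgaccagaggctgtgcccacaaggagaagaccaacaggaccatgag
Plaur, other probe: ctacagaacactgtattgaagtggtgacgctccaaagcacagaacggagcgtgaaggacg
Serpinb2: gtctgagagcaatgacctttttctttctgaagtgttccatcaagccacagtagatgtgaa

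The 4 genes that were called higher in OSCC are shown with the 250 bases before their annotated start, to set the promoters of genes that rose together side by side. The sequences are from RefSeq, assembly GRCr8, in the direction of the gene. Capitals mark the AP-1 motif TGANTCA and the GC box GGGCGG, each searched on both strands (the AP-1 motif reads the same on either). The windows are chr15:3511988-3512237 on the minus strand for Plau, chr1:89181113-89181362 on the plus strand for Plaur, chr9:88637203-88637452 on the minus strand for Serpine2 and chr13:24055771-24056020 on the plus strand for Serpinb2.
Plau: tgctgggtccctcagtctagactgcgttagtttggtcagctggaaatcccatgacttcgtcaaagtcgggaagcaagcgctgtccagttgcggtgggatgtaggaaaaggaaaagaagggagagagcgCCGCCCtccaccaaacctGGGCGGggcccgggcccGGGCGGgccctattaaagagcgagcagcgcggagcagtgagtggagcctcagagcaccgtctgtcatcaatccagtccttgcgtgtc
Plaur: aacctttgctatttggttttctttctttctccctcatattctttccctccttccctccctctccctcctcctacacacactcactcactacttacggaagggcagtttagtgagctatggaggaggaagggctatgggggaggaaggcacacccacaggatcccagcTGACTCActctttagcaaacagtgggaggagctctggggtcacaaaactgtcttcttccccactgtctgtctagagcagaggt
Serpine2: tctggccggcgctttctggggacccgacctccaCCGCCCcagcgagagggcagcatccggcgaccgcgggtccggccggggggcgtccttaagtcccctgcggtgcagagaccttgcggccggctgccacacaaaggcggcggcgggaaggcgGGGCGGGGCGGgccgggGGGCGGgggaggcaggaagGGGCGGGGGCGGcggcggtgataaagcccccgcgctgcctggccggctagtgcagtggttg
Serpinb2: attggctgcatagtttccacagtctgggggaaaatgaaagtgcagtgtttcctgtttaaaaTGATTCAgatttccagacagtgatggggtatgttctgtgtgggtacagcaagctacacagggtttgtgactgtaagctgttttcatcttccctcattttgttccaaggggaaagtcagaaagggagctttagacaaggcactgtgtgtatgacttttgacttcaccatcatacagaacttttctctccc

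Of all 33469 promoter windows of that length, 6.34% held the AP-1 motif and 30.5% the GC box. The Plaur window held 1 AP-1 motif, beginning 83 bases before the start, and the Serpinb2 window held 1, beginning 189 bases before it. The windows of Plau and Serpine2 held no AP-1 motif and had 3 and 6 GC boxes, with overlaps in Serpine2. Those of Plaur and Serpinb2 held no GC box, while those of Anxa2 and Serpinb5 held 2 and 1. Of the genes that were not called, Anxa2 and Serpinb5 each held 1 AP-1 motif, 123 and 144 bases before the start, so the motif was present both in genes that were called and in genes that were not. A match of letters is a description of the window and not evidence of a bound factor. The RefSeq table gave a promoter for 6 of the 7 genes, all but Plat.

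Total signal differed between the tissues before scaling. The 75th percentile of the processed signal lay between 236.8 and 654.9 in normal tissues and between 338.7 and 1414 in OSCC, and 48.42 to 56.12% and 52.3 to 65.5% of probes, respectively, were well above background. All 11 normal tissues were scanned on the first scan day with the OSCC of animals 4 and 9, and the other 9 OSCC on the second day. No slide carried both tissues. Expression is given as log2 signal relative to the 75th percentile of its array, so that 0 is that percentile, and a level of 1 probe cannot be set against a level of another. On this scale the median difference of all probes between OSCC and normal tissue was -0.24. Over all probes, the changes of animals 21, 22 and 24 correlated with the mean of the other pairs at r of 0.47, 0.21 and 0.26, that of animal 17 at 0.47, and those of the other 7 at 0.76 to 0.84. For the OSCC of animals 21, 22 and 24, the summed level of 12 skeletal muscle genes was 3060, 2410 and 2870 times the 75th percentile. In normal tissues it was 1400 to 2810, and in the other OSCC it was 72.7 to 1030.

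Plau, Plaur, Serpine2 and Serpinb2 were called higher in OSCC, and none of the 7 genes was called lower. A call needed a difference of 2-fold or more with an adjusted p under 0.05 (limma, 11 pairs, adjusted over all probes). Thus 4 of 7 members were called, all higher, beside 13.8% of all probes called in either direction, 6.86% higher and 6.97% lower. The median log2 difference of the 7 genes was 1.36. Plat passed the test below the 2-fold limit, though not under every alternative, whereas Anxa2 and Serpinb5 did not pass it.

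**Figure D1:**
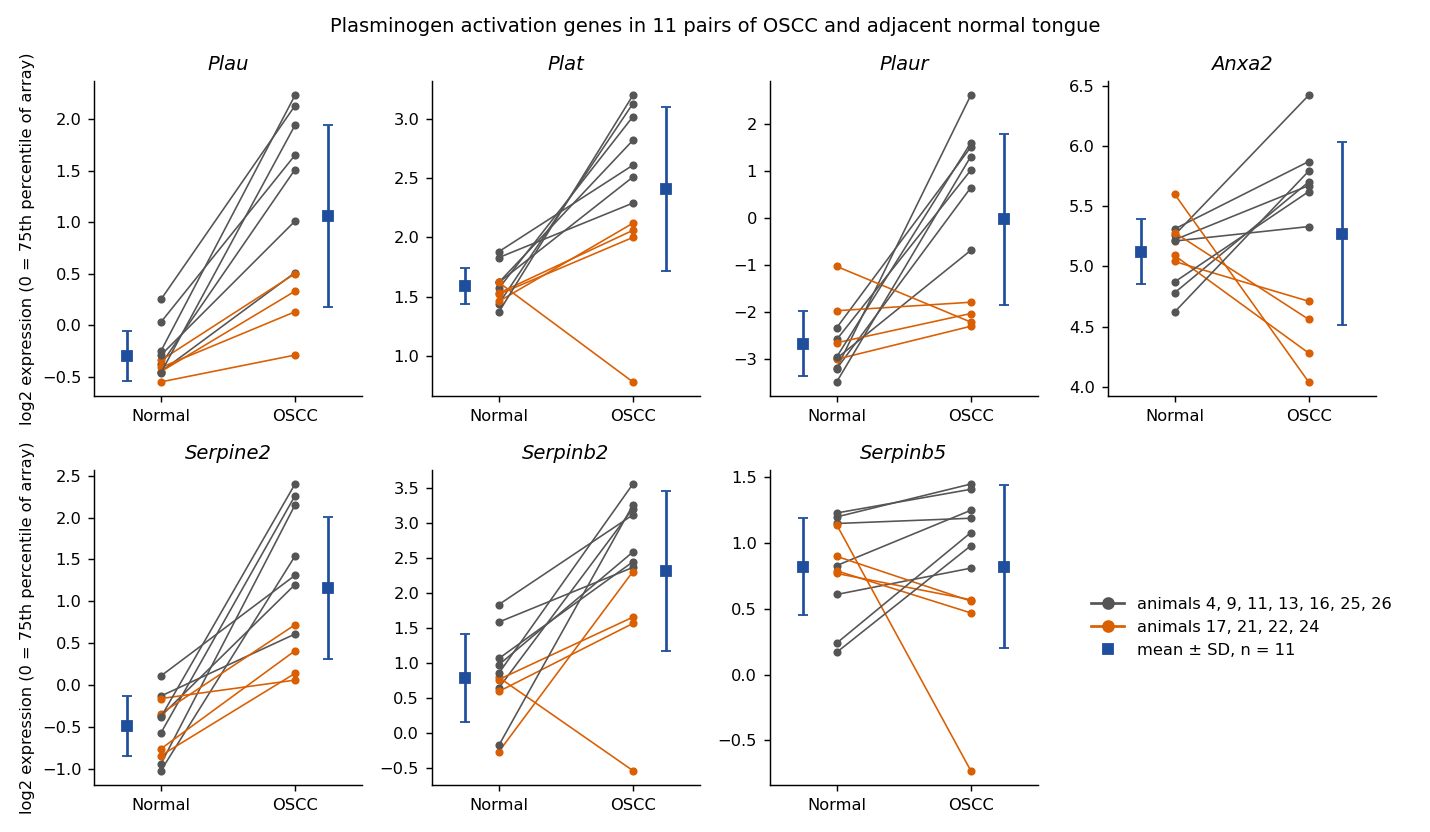
Log2 expression (0 is the 75th percentile of the array) of each gene in normal tissue and OSCC, with 1 line for each of 11 animals and squares for mean ± SD. For each gene the SD is larger over OSCC than over normal tissues, as it was for 83.1% of all probes. The SD over normal tissues runs from 0.15 for Plat to 0.69 for Plaur, and over OSCC from 0.62 for Serpinb5 to 1.81 for Plaur. The OSCC of animals 17, 21, 22 and 24, drawn in orange, are the lowest for every gene but Serpine2. There the OSCC of animal 9 lies below that of animal 24.

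Of the activators, urokinase rose in every pair. Plau levels were -0.55 at the lowest, -0.38 at the median and 0.25 at the highest in normal tissues, and -0.29, 1.01 and 2.23 in OSCC. In 9 OSCC the level was above the highest normal tissue, and the groups overlapped only through the OSCC of animals 17 and 22. The lowest OSCC was above the highest normal tissue for 0.667% of all probes and for none of the 7 genes. The mean rose from -0.30 ± 0.24 to 1.06 ± 0.88 (SD, n = 11), a log2 difference of 1.36 with a standard error of 0.22 (2.57-fold, adjusted p = 0.00079, limma). The pair differences ran from 0.26 in animal 22 to 2.48 in animal 11, and all 11 were above 0, as they were for 4.62% of all probes.

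Tissue-type activator changed less. Plat lay between 1.37 and 1.88 in normal tissues, with a median of 1.57, which was the narrowest range among the 7 genes, and between 0.78 and 3.20 in OSCC, with a median of 2.51. In 10 OSCC the level stood above the highest normal tissue, and the OSCC of animal 17 stood below the lowest. The mean difference was 0.83 with a standard error of 0.21 (1.77-fold, adjusted p = 0.010, limma), higher in 10 of 11 pairs, with animal 17 falling by 0.84. With normexp background correction Plat was at 0.77 and did not pass the test (adjusted p = 0.069, limma). Within pairs, Plau exceeded Plat in its difference by 0.53 with a standard error of 0.13, in 10 of 11 pairs (exact two-sided sign-flip permutation test, p = 0.0029, adjusted over 4 such comparisons to 0.0039). The smallest p that 2048 sign flips can give is 0.00098.

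The urokinase receptor gave the widest range of differences of the 7 genes. On the brighter probe, Plaur was at -3.48, -2.95 and -1.03 (lowest, median and highest) in normal tissues and at -2.30, 0.64 and 2.60 in OSCC. In 7 OSCC the level lay above all normal tissues, and the OSCC of animals 17, 21, 22 and 24 lay within the normal range. The mean difference was 2.63 with a standard error of 0.61 (6.21-fold, adjusted p = 0.0056, limma), with 10 of 11 pairs higher. The probe was well above background in 10 of 11 normal tissues and in all OSCC, so the level of this gene in normal tissue was near the limit of the arrays.

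The other Plaur probe separated the animals further. Its mean difference was 3.30 with a standard error of 0.62 (9.82-fold, adjusted p = 0.0018, limma), and it was well above background in 8 of 11 normal tissues. The differences were 4.07 to 6.07 in animals 4, 9, 11, 13, 16, 25 and 26 and -0.02 to 1.35 in animals 17, 21, 22 and 24. Between these sets no pair fell over a gap of 2.72 log2 units, which was 44.6% of the whole range. The corresponding gap was 1.59, or 22.7% of the range, on the brighter probe. The probes differed most in the normal tissue of animal 17, at -1.03 on the brighter and -3.28 on the other, so that the pair fell by 1.18 on the first and was higher by 1.35 on the second.

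**Figure D2:**
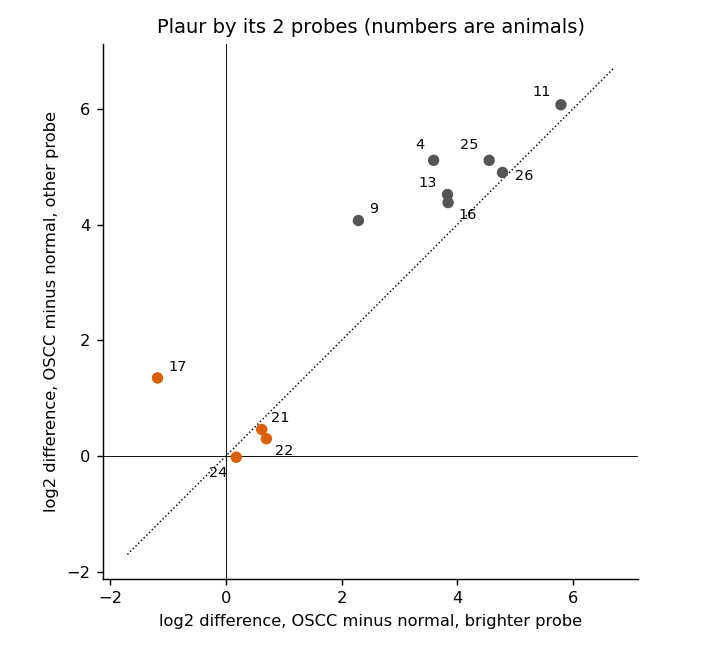
Log2 difference of Plaur between OSCC and normal tissue on the brighter probe (horizontal axis) and on the other probe (vertical axis), 1 point per animal, with the line of equal values dotted. The other 7 animals lie at 2.29 to 5.79 on the horizontal axis, and animals 17, 21, 22 and 24, in orange, at -1.18 to 0.70.

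Annexin A2, by contrast, was abundant in both tissues. Anxa2 was at 4.62, 5.21 and 5.60 (lowest, median, highest) in normal tissues and at 4.04, 5.62 and 6.42 in OSCC, with a mean difference of 0.16 and a 95% interval of -0.39 to 0.71 (adjusted p = 0.62, limma). The small mean hid changes in both directions, since 7 pairs were higher by 0.12 to 1.17 and animals 17, 21, 22 and 24 fell by 0.33, 0.71, 0.81 and 1.55. Without animals 21, 22 and 24 the difference was 0.60 (adjusted p = 0.015, limma). When each array was scaled to its median, the difference over all 11 pairs was -0.04. The difference of Plaur exceeded that of Anxa2 by 2.48 with a standard error of 0.46, in 10 of 11 pairs (exact sign-flip permutation test, p = 0.0020, adjusted p = 0.0039).

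Among the serpins, protease nexin 1 rose in every pair. Serpine2 was at -1.02, -0.38 and 0.11 in normal tissues and at 0.06, 1.20 and 2.40 in OSCC. Only the OSCC of animal 17 was not above the highest normal tissue. The mean difference was 1.65 with a standard error of 0.28 (3.15-fold, adjusted p = 0.0010, limma), and all 11 pairs were higher, by 0.22 to 3.09.

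Plasminogen activator inhibitor 2 rose in most pairs, with the animals in another order. Serpinb2 levels were -0.27, 0.79 and 1.83 in normal tissues and -0.54, 2.44 and 3.55 in OSCC. In 8 OSCC it was above the highest normal tissue, and the OSCC of animal 24 was below the lowest. The difference was 1.53 with a standard error of 0.36 (2.89-fold, adjusted p = 0.0058, limma), with 10 of 11 pairs higher, up to 3.43 in animal 25, and animal 24 lower by a log2 difference of -1.33. The difference of Serpinb2 was -0.12 relative to that of Serpine2, with a standard error of 0.39, and was larger in 5 of 11 pairs (exact sign-flip permutation test, p = 0.75), so the mean changes of these serpins were not distinguishable.

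Maspin had equal means in the tissues. Serpinb5 was at 0.17, 0.83 and 1.23 in normal tissues and at -0.73, 0.98 and 1.45 in OSCC, both with a mean of 0.82. The interval of the difference was -0.46 to 0.46 (adjusted p = 1.0, limma). In 7 pairs it was higher, by 0.04 to 0.83, and animals 17, 21 and 22 fell by 0.32, 0.34 and 0.20 and animal 24 by 1.87. The difference of Serpinb2 exceeded that of Serpinb5, also a clade B serpin, by 1.53 with a standard error of 0.23 in all 11 pairs (exact sign-flip permutation test, p = 0.00098, adjusted p = 0.0039).

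**Figure D3:**
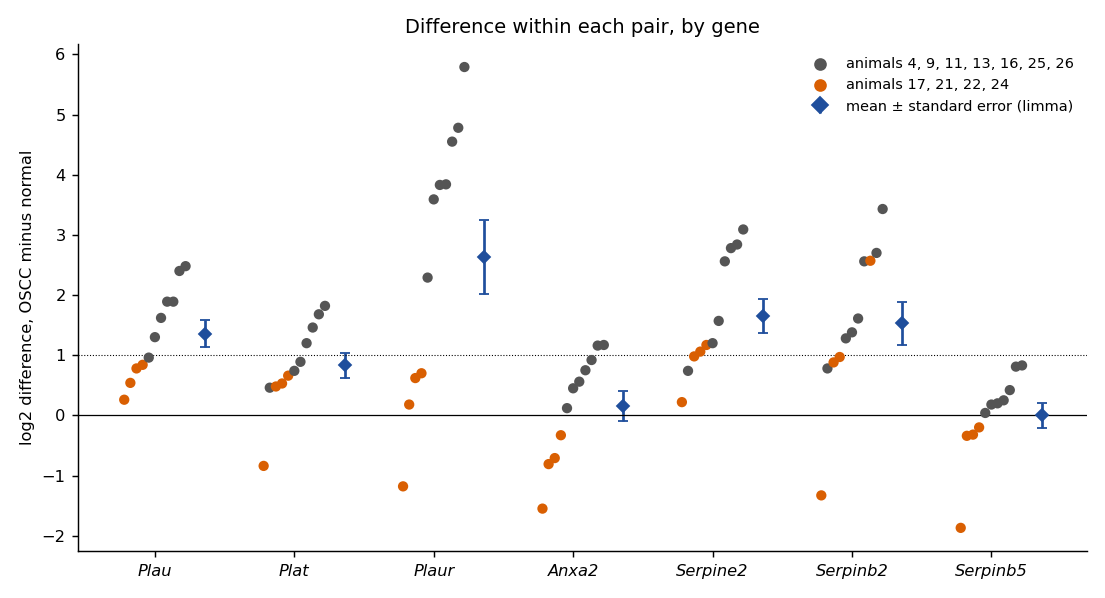
Log2 difference between OSCC and normal tissue for each gene, 1 point per animal sorted by value, with diamonds for the mean ± standard error of the limma fit and a dotted line at the 2-fold limit of 1. All points of Plau and Serpine2 lie above 0, while those of Anxa2 and Serpinb5 lie on both sides.

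The scan day and the tissue overlapped in only animals 4 and 9, whose tissues were both scanned on the first day. In these 2 pairs the mean difference was 1.29 for Plau, 0.83 for Plat, 2.94 for Plaur, 0.29 for Anxa2, 1.65 for Serpine2, 1.44 for Serpinb2 and 0.15 for Serpinb5. In the other pairs, scan day and tissue cannot be told apart. The 2 pairs of animals 4 and 9 differed from each other, at 2.56 and 0.74 for Serpine2 and 3.59 and 2.29 for Plaur. With scan day as a term the fit rests on these 2 pairs, and none of the 7 genes passed the test (adjusted p = 0.11 for Plau and Serpine2, 0.17 for Plaur, 0.24 for Serpinb2 and 0.26 for Plat, limma).

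Markers of some cell types also differed between the tissues, beside 6.86% of all probes called higher and 6.97% lower. Of 11 fibroblast markers 6 were called higher and none lower, and their summed level was 68.9 to 111 times the 75th percentile in normal tissues and 58 to 500 in OSCC. Neutrophil markers (6 of 9 called higher) summed to 0.727 to 4.64 in normal tissues and to 1.78 to 397 in OSCC, and macrophage markers (7 of 10 higher) to 15.4 to 37 and 25.1 to 78.5. Skeletal muscle markers fell in 9 of 12, while 1 of 11 squamous epithelial markers (Dsg3) was called higher and 1 (Krt15) lower, none of 9 endothelial markers was called, and Krt5 and Krt14 were above background in every sample.

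The OSCC of animals 17, 21, 22 and 24, which had the lowest Plaur levels, also had the lowest marker sums of 3 kinds. Their fibroblast sums were 58, 116, 121 and 132, against 166 to 500 in the other OSCC. Their neutrophil sums were 19.5, 7.93, 6.33 and 1.78, against 56.3 to 397. Their proliferation sums were 6.12, 7.53, 5.01 and 4, against 13.2 to 25.8. Their skeletal muscle sums, by contrast, were the highest, at 1030, 3060, 2410 and 2870, against 72.7 to 480 in the other OSCC. All 10 markers of serous glands were called higher, and their sum, 0.337 to 3.01 in normal tissues, spanned 3.17 to 6340 in OSCC, with the highest in animal 17. The part of these cell types in the changes of the 7 genes was not tested.

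The 7 genes moved together to unequal degrees over the pairs. All 21 correlations between their differences were positive, and 11 of the 21 had an adjusted p of r below 0.05 (permutation test with 100000 resamples, two-sided, adjusted over the 21), of which 10 also passed with Spearman's rho. Both genes of a relation share the scaling of their arrays and the cell makeup of the pieces. The closest relation was that of Plat with Serpine2 (r = 0.91, permutation p = 3e-05, adjusted p = 0.00063, rho = 0.95, adjusted p = 0.0013), with r = 0.96 when animals 17 and 25, farthest from the median of Plat, were left out. Anxa2 and Serpinb5 followed, neither of which passed the test of its mean (r = 0.89, permutation p = 7e-05, adjusted p = 0.00073, rho = 0.88, adjusted p = 0.0030), with r = 0.85 without animals 22 and 24. Within the 7 animals other than 17, 21, 22 and 24, r was 0.63 for Anxa2 with Serpinb5 (exact permutation p = 0.14, rho = 0.64) and 0.93 for Plat with Serpine2. That set was picked after the values of Plaur were seen, and p-values within it, here and below, were not adjusted.

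Plau was related to Plat (r = 0.84, permutation p = 0.00060, adjusted p = 0.0028, rho = 0.88) and to Serpine2 (r = 0.86, permutation p = 0.0011, adjusted p = 0.0032, rho = 0.85), and r was 0.72 and 0.78 without animals 11 and 25. The relation of Serpinb2 to Serpinb5 had an r of 0.85 (permutation p = 0.0031, adjusted p = 0.0082) and a rho of 0.60 (adjusted p = 0.074). Its r was 0.43 without animals 24 and 25, and 0.86 within the 7 animals other than 17, 21, 22 and 24 (exact permutation p = 0.012, rho = 0.68, exact permutation p = 0.11). Serpinb2 was not related to Serpine2 beyond the permutations (r = 0.38, permutation p = 0.25, rho = 0.37).

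Plaur was related to Anxa2 (r = 0.88, permutation p = 0.00052, adjusted p = 0.0028, rho = 0.92), with r = 0.97 without animals 17 and 24, and to Plau (r = 0.88, permutation p = 0.00077, adjusted p = 0.0028, rho = 0.85). The 2 sets of animals stood apart on the other Plaur probe, which was looked at after the values were seen, whereas on the brighter probe, used here, the widest gap was the smallest share of the range among the 7 genes (22.7%, against 22.8% for Plau and up to 56.5% for Serpinb5, where it set 1 pair apart). Within the 7 animals of the higher set, r of Plaur was 0.90 with Anxa2 (exact permutation p = 0.0077, rho = 0.93) and 0.73 with Plau (exact permutation p = 0.063), p-values that were not adjusted. The set was picked by the differences of Plaur itself, and the permutations take no account of that choice, so these values are a description.

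**Figure D4:**
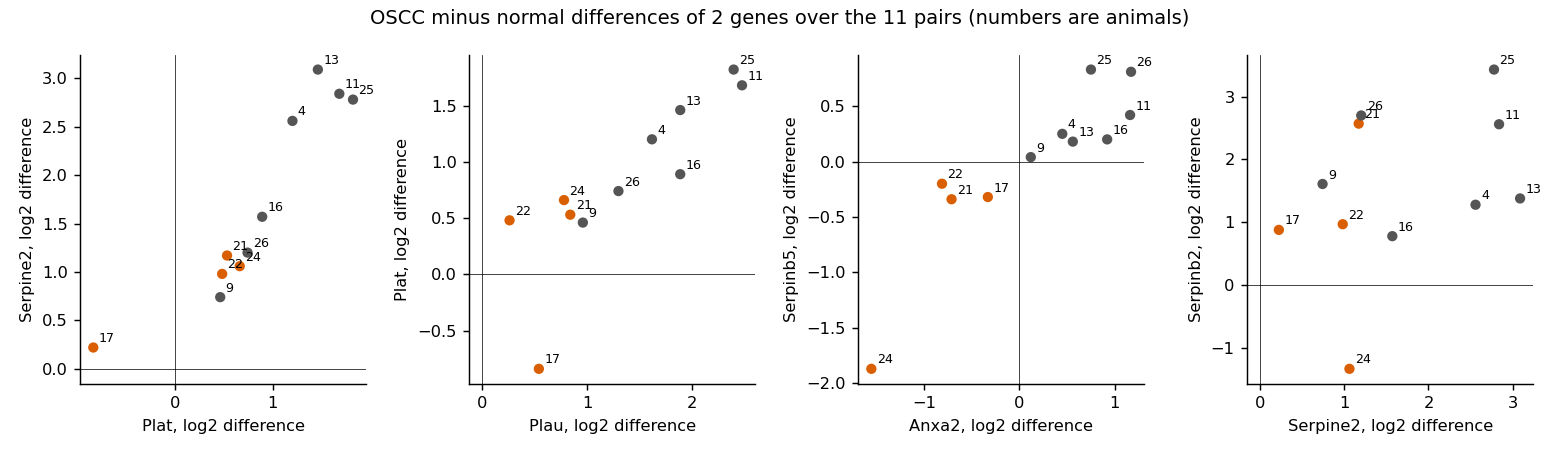
Log2 differences between OSCC and normal tissue of Serpine2 against Plat, Plat against Plau, Serpinb5 against Anxa2 and Serpinb2 against Serpine2, 1 numbered point per animal and animals 17, 21, 22 and 24 in orange. The first 3 panels rise together (r of 0.91, 0.84 and 0.89), and in the last r is 0.38.

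The genes with the most similar pattern over the 11 OSCC were looked for among 7986 genes, by Pearson's r of log2 levels and as a description without a test. Plaur was followed most closely by Stk38l (r = 0.995), a protein kinase, then by Gpr176 (0.989) and Adamts7 (0.982). Plat was followed by Bnip2 (0.986), by Fn1 (0.978), which encodes fibronectin, and by Olfml2b (0.978). Plau had Klhl5 (0.967), Rpp21 (0.963) and Plod1 (0.961), a collagen lysyl hydroxylase, and Serpine2 had Slc25a14 (0.975), Rara (0.975), a retinoic acid receptor, and Rasl11b (0.973).

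The clade B serpins and Anxa2 had other companions. Serpinb2 was followed by Atp6v0e1 (r = 0.986), Wnt4 (0.975) and Slco4a1 (0.968), Serpinb5 by Fbxl19 (0.980) and Eaf1 (0.968), and Anxa2 by Tpm3 (0.979) and Coro1c (0.978). The 7 genes themselves were left out of this search.

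Of 44 other genes of plasminogen activation and the linked coagulation system, 11 were called higher, 2 lower and 31 neither, with a median log2 difference of 0.26. Over all probes, 6.86% were called higher and 6.97% lower. Serpina5, Cpb2, F12, Fga, Fgb, Fgg and Hrg, 7 genes of proteins found mostly in plasma, were above background on no array.

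The mRNA of plasminogen differed little between the tissues, and that of the plasmin inhibitor was mostly below detection. The arrays measure RNA in the tissue, and the amount of either protein there was not measured. Plg, which encodes plasminogen, was at -2.52 to -1.66 in normal tissues and at -2.16 to -1.02 in OSCC, a difference of 0.32 (1.25-fold, adjusted p = 0.049, limma) and below the 2-fold limit. Serpinf2, which encodes the plasmin inhibitor alpha-2-antiplasmin, was above background in none of the normal tissues and in 2 OSCC. S100a10, the partner of annexin A2, differed by 0.22 (adjusted p = 0.34, limma), with 7 pairs higher and 4 lower, as for Anxa2.

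Other called genes of that system had roles in binding, clotting and protease inhibition. Itgam, an integrin subunit of myeloid cells, rose by 2.13 with a standard error of 0.27 (adjusted p = 0.00030) in all 11 pairs, and the platelet-derived growth factor Pdgfc by 1.41 (adjusted p = 0.00034) in all 11. F3, which encodes tissue factor, rose by 1.41 (adjusted p = 0.0012) and Procr, the endothelial protein C receptor, by 1.48 (adjusted p = 0.0038), each in 10 of 11 pairs. The broad protease trap A2m rose by 2.66 with a standard error of 0.73 (adjusted p = 0.014) in 8 of 11. Its probe was well above background in 5 normal tissues and 8 OSCC, and the difference of A2m was 1.13 with normexp background correction and 3.93 without animals 21, 22 and 24. All these p-values are from the same limma fit.

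Kng1 (kininogen), the integrin gene Itgb3 and the Kunitz inhibitor Tfpi2 were not well above background in any normal tissue, so the difference is a lower limit set by the dimmest signal well above background on each array, or by the signal of the probe where that was higher. In OSCC, Kng1 was higher by at least 1.64-fold, Itgb3 by at least 1.76-fold and Tfpi2 by at least 2.85-fold. The calls rest on the fitted log2 differences of 2.91, 2.48 and 2.14 (adjusted p = 0.00093, 0.0013 and 0.0020, limma). These p-values do not test the lower limits, and the limits of Kng1 and Itgb3 were under 2-fold. With background correction by normexp, the calls of Kng1, Itgb3, Tfpi2 and Pdgfc were lost. The surface protein gene Cd109 fell by 1.68 in all 11 pairs (adjusted p = 0.00026, limma), and its call was lost as well under that correction (log2 difference of -0.85, adjusted p = 0.063). Further called genes, named here after their values were seen, were Itgav (1.34, adjusted p = 0.0014), Anxa1 (1.24, adjusted p = 0.0037) and the serine protease gene Hpn (-1.30, adjusted p = 0.028). Of these, Itgav and Hpn lost their calls with normexp (0.61 and -0.62). The call of Hpn was lost also with slide as a random block (adjusted p = 0.075, limma) and without animal 11, 13, 25 or 26 (adjusted p = 0.059 to 0.064, limma).

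**Figure D5:**
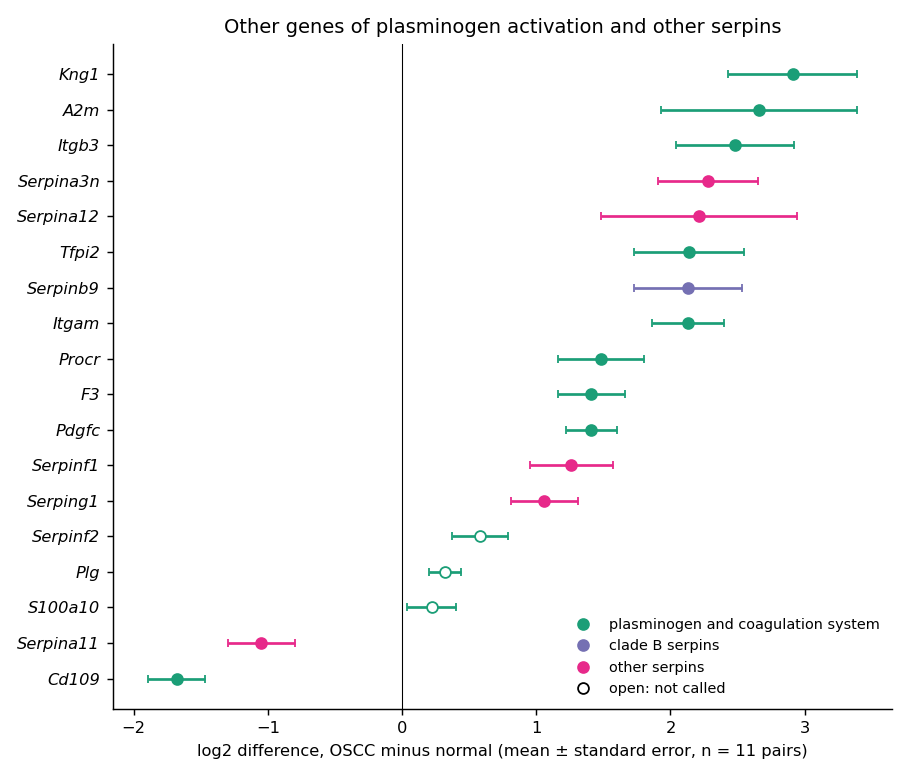
Log2 difference between OSCC and normal tissue, mean ± standard error over 11 pairs, for the named genes outside the 7, coloured by list, with open symbols for genes that were not called. Itgam lies at 2.13 and Cd109 at -1.68; the points of Kng1, Itgb3 and Tfpi2 are fitted values of genes below background in normal tissue.

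Of 13 further clade B serpins 1 was called higher and none lower, beside 6.86% of all probes called higher and 6.97% lower. This was Serpinb9, an inhibitor of granzyme B, which rose by 2.13 with a standard error of 0.40 (4.37-fold, adjusted p = 0.0018, limma) in 10 of 11 pairs. The median difference of the 13 was 0.39. The other 12, from Serpinb10 at -0.52 to Serpinb11 at 0.91 (adjusted p = 0.033, limma, under 2-fold), were not called.

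The arrays held 13 serpins of other clades, 4 of them called higher and 1 called lower, with a median of -0.12, and 5 were above background on no array. The shares over all probes were 6.86% higher and 6.97% lower. The acute-phase serpin Serpina3n rose by 2.28 with a standard error of 0.37 (4.86-fold, adjusted p = 0.00084, limma). Serpinf1, which encodes pigment epithelium-derived factor, rose by 1.26 (adjusted p = 0.0076), and Serping1, which encodes the C1 inhibitor, by 1.06 (adjusted p = 0.0056). Serpina12 rose by 2.21 (adjusted p = 0.030) and Serpina11 fell by 1.05 (adjusted p = 0.0074), with normal levels of Serpina12 spread from -6.06 to 0.70. Several of these calls were lost when single animals were left out or when the processing was changed. That of Serpina12 was lost without animal 11, 13, 22 or 25 (adjusted p = 0.051 to 0.064, limma), that of Serping1 without animal 9, 11 or 25 (0.93 to 0.99, under 2-fold) and that of Serpina11 without animal 16, 21 or 24 (-0.99 to -0.89). With normexp, Serpinf1 was at 1.19 with an adjusted p of 0.068 (limma) and the calls of Serpina12 and Serpina11 were lost.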

How the data were processed

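Total RNA of 11 OSCC and 11 normal tongue tissues was hybridised by the authors to one-colour Agilent rat arrays. The deposited scanner files hold intensity values made by the authors with Feature Extraction 9.5.3.1, which subtracts background and spatial trend, and these linear values carry no scaling between arrays. A second table deposited by the authors gives the ratio of that signal to the 75th percentile of its array (99.9% of values at or above 0.5 within 2%), used as an alternative. Control spots and 9196 outlier spots (0.975%) were left out, copies of 1 probe were averaged in log2, and each array was centred on its 75th percentile. Of 30367 probes, 68 lacked a value on at least 1 array, and no filter on dim probes was applied. A probe counted as well above background on an array where at least 50% of its spots did. The precision is limited by the number of arrays.

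The tissues were compared by limma (version 3.58.1, R version 4.3.3) in a model of animal and tissue, and p-values were adjusted over all probes by Benjamini-Hochberg. Each pair is from 1 animal, and the deviations of the 2 tissues of an animal from their tissue means correlated at -0.21 to 0.24 (median -0.02). The limma p-values set the mean difference within pairs against the spread of these differences over the animals. They do not separate tissue from scan day or slide. Marker sums are linear signals over the 75th percentile. Named genes were all 7 members, every called gene of the 3 lists (the 10 with the largest difference where more than 10 were called), Plg, Serpinf2 and S100a10, and the 3 genes most like each member, apart from a few that are not reported here. The members, lists and alternatives were chosen with earlier results of these data known. Of the listed genes, Serpine3, Sfn and Mki67 were not found by symbol, synonym or accession, and Serpinb6 and Serpinb6a share 1 probe, counted once. Alternatives were no pairing, scan day, slide, normexp, other scalings, the authors' values, a filter, the paired t-test of the methods, the mean of probes, and left-out animals. The other probe of Plaur was added after seeing the data.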

Additional observations from a re-analysis of the deposited data

How the results depend on the processing

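Of the members, 4 were called under every alternative except scan day as a term, where 0 were, also without the pairing of the replicate block (4 called, so the pairing changed no call among them) and without any 1 animal (4). The methods' paired t-test called 4 members before adjustment and 4 after Benjamini-Hochberg. Scan day as a term gave 0 calls for the plasminogen system (higher and lower), the clade B serpins and the other serpins too. Normexp gave 6 higher and 0 lower for the plasminogen system, and 2 higher and 0 lower for the other serpins. Lower calls in the plasminogen system, 2 as reported, were 1 with slide as a random block, 5 without animals 21, 22 and 24, and 1 to 2 without single animals (1 without animal 11, 13, 25 or 26). Clade B serpins called higher, 1 as reported, were 2 without animals 21, 22 and 24 and 1 to 2 without single animals (2 without animal 4 or 16). Other serpins called higher were 2 to 4 without single animals (2 without animal 11 or 25). The 1 called lower was 0 with the percentile over detected probes, with the mean of probes and without animals 21, 22 and 24, and 0 to 1 without single animals (0 without animal 16, 21 or 24). Serpinb5, with no mean difference, was at 0.15 with scan day, 0.02 with slide, 0.05 after quantile normalization, 0.09 with the percentile over detected probes, 0.30 without animals 21, 22 and 24, and -0.08 to 0.19 without single animals. Anxa2 was at -0.04 with array median scaling. The difference of Serpinb2 against Serpine2 was 0.02 with normexp and -0.29 to 0.10 without single animals. Apart from scan day, which leaves 2 pairs to tell tissue from day, the cause was not tested. Dim genes, Plaur in normal tissue among them, are limited by signal over background.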
